A study of Homo sapiens with 12 samples.

Results

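Metallothionein transcripts were examined in MRC5 cells, which are human embryonic lung fibroblasts. All cells were MRC5, so no result here speaks for other fibroblasts. The members were the 7 rows of the count table named MT1A, MT1E, MT1F, MT1G, MT1M, MT1X and MT2A, out of 57500 genes in all. RNA had been sequenced from 4 groups of 3 libraries: proliferating cells that were not irradiated (Prol), senescent cells irradiated with a dose of 20 Gy (Sen(IR)), and cells given the same irradiation and then cultured with CTPI2 or UK5099 (written Sen(IR)+CTPI2 and Sen(IR)+UK5099 here, Sen(IR+CTPI2) and Sen(IR+UK5099) in the labels). UK5099 blocks the mitochondrial pyruvate carrier and CTPI2 blocks the mitochondrial citrate carrier SLC25A1. The methods give 100 μM UK5099 and 15 or 30 μM CTPI2, without saying which CTPI2 concentration was sequenced, with addition 1 day after irradiation and collection at 10 to 12 days. The concentrations of the inhibitors therefore differed. Proliferating cells with an inhibitor were not analysed here, so the effect of either compound was measured in irradiated cells alone. Nothing in the labels says that the libraries of a group came from separate cultures. The paper's legends speak of 3 independent experiments for the CTPI2 heatmaps and of 3 independent conditions for its RNA-seq with UK5099. What was repeated in each is not described, so p-values measure the spread between these libraries.

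Metallothioneins are small, cysteine-rich proteins of the cytosol and nucleus that bind zinc and copper and that also capture cadmium. Their genes are switched on when free zinc rises: the transcription factor MTF1 binds zinc and then attaches to short metal response elements in the promoters. Glucocorticoids, inflammatory cytokines and oxidative stress also raise them, and MT2A is usually the most abundant form in human cells. MT1A, MT1E, MT1F, MT1G, MT1M and MT1X encode near-identical proteins of the MT1 group.

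The 7 genes lie together on chromosome 16 (GRCh38), from the start of MT2A at 56608584 to the end of MT1X at 56684196. MT1G alone is on the minus strand. Promoter sequences of 2 members were matched in the RefSeq table (GRCh38.p14), MT2A and MT1X. They are shown because both genes carry the changes described below. The promoter of SLC30A1, a zinc exporter gene that MTF1 is known to switch on, is shown beside them. SLC30A1 was chosen because its RNA differed with UK5099 in the opposite direction, by less than the fold limit given below. Each stretch covers the 250 bases before the gene's start, 5′ to 3′ on the gene's strand. Capitals mark the core of the metal response element, searched on both strands as TGCACNC and TGCGCNC.

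MT2A, chr16:56608334-56608583, plus strand: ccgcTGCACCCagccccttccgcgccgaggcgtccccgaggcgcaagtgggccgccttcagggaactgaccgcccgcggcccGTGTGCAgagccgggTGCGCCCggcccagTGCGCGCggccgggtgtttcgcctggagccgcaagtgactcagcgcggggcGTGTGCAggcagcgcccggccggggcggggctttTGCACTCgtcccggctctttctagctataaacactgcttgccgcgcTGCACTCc
MT1X, chr16:56682220-56682469, plus strand: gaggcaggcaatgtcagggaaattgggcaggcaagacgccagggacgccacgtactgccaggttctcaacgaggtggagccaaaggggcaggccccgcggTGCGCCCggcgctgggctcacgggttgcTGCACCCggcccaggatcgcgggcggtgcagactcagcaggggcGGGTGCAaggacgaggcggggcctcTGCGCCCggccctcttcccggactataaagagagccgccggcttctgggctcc
SLC30A1, chr1:211579162-211579411, minus strand: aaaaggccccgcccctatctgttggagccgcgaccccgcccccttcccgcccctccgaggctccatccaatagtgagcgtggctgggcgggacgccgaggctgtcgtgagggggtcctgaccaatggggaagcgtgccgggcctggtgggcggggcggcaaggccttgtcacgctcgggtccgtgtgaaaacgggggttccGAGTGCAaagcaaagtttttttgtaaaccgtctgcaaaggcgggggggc

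The MT2A stretch held 7 cores, that of MT1X held 4 and that of SLC30A1 held 1. Over the whole windows of 300 bases, which run on to 50 bases after the start, MT2A had 8 cores, MT1X had 4 and SLC30A1 had 2. Of 35116 promoter windows of that length in the table, 0.0199% held at least 8 cores, 0.601% at least 4, 8.6% at least 2 and 29.6% at least 1. MT2A also had 1 match to the AP-1 site TGACTCA, at positions -104 to -98 from the start, which 4.95% of all windows held. A TATA box (TATAAA, searched on the gene's strand) stood at -29 to -24 in MT2A and at -30 to -25 in MT1X, and in 7.33% of all windows. Among metallothionein genes outside the members, the window of MT1H held 8 cores and those of MT1B and MT4 held 3 each. MT1H had at most 3 counts in any library and MT1B at most 4. Whether the number of cores goes with the RNA changes was not tested. These letter matches are descriptions of the sequence and show no binding.

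Metallothionein RNA was about 10.2-fold lower with UK5099 than in senescent cells without an inhibitor, and stood near the senescent level with CTPI2. The summed counts of the 7 genes, scaled to library size by TMM and given as CPM (counts for each 1e+06 counts of the library), were 155, 121 and 176 in the Prol libraries and 149, 144 and 155 in the Sen(IR) libraries. With CTPI2 they were 143, 132 and 136, and with UK5099 they were 15.3, 16.6 and 12.1. The 3 UK5099 libraries lay far below all others. The CTPI2 libraries lay just below those of Sen(IR) without overlap, as held for 15.1% of all genes, and the Prol libraries overlapped both groups. As means the sum was 150.6 ± 27.4 (SD, n = 3) in Prol, 149.7 ± 5.52 in Sen(IR), 137 ± 5.54 with CTPI2 and 14.7 ± 2.31 with UK5099. The sum was not tested, because its members were chosen. These are bulk libraries, so fewer expressing cells and less RNA per cell cannot be told apart. The 7 genes together took between 0.00128% and 0.0167% of all counts in a library.

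A test across all genes (edgeR's quasi-likelihood test, 16251 genes after a filter on low counts) covered 3 of the 7 members, MT2A, MT1E and MT1X. A gene was called at a Benjamini-Hochberg adjusted p under 0.05 over all genes tested if its log2 fold change was also beyond 0.5 in either direction. The other 4 members, MT1A, MT1F, MT1G and MT1M, fell below the filter and are described by their counts.

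**Figure D1:**
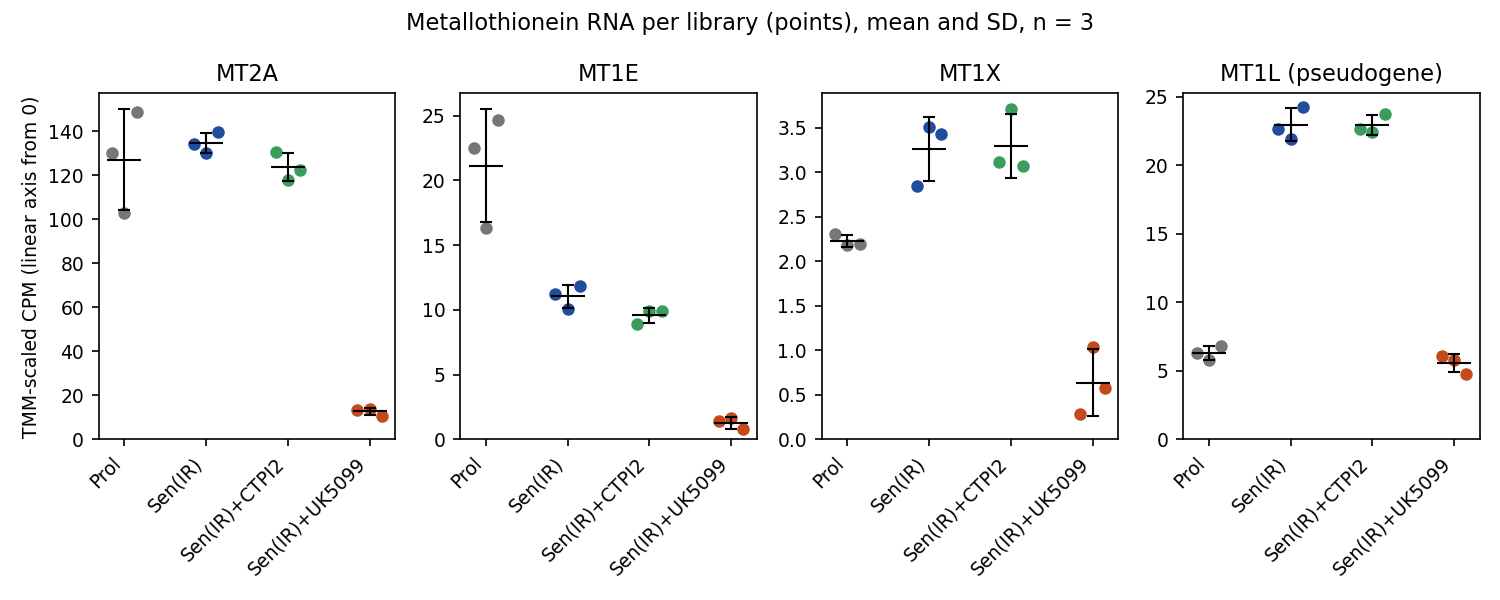
TMM-scaled CPM of MT2A, MT1E, MT1X and the pseudogene MT1L in each library (points) of the 4 groups, on linear axes that start at 0, with the mean and SD (n = 3). The UK5099 points are the lowest for MT2A, MT1E and MT1X, with MT2A between 10.7 and 13.9 against 130.1 to 139 in Sen(IR), while for MT1L they overlap the Prol points.

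MT2A, the abundant form, carried most of the signal. Its level was 130.0, 102.7 and 149 CPM in the Prol libraries, 134, 130.1 and 139 in Sen(IR), 130.3, 118 and 122 with CTPI2, and 13.5, 13.9 and 10.7 with UK5099. The UK5099 libraries did not overlap any other group, and the Prol libraries spanned all values of Sen(IR) and CTPI2. The mean was 127 ± 23.0 CPM in Prol, 135 ± 4.72 in Sen(IR), 124 ± 6.34 with CTPI2 and 12.7 ± 1.74 with UK5099 (SD, n = 3 each). With UK5099 against Sen(IR), MT2A fell by 3.40 on the log2 scale (SE 0.110, adjusted p = 8.88e-17), which placed it 151st from the lowest of 16251 fold changes.

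MT1E showed a separate step between proliferating and senescent cells. It stood at 22.5, 16.3 and 24.6 CPM in Prol, at 11.2, 10.1 and 11.8 in Sen(IR), at 8.89, 9.90 and 9.91 with CTPI2 and at 1.45, 1.63 and 0.774 with UK5099. Every Prol library lay above every irradiated one, and the UK5099 libraries lay below all others. Means were 21.1 ± 4.33 CPM in Prol, 11.0 ± 0.877 in Sen(IR), 9.57 ± 0.581 with CTPI2 and 1.28 ± 0.451 with UK5099.

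MT1X, the least abundant of the 3, moved in the other direction between Prol and Sen(IR). Its libraries held 2.301, 2.188 and 2.191 CPM in Prol, 2.84, 3.50 and 3.43 in Sen(IR), 3.11, 3.71 and 3.07 with CTPI2 and 0.290, 1.04 and 0.581 with UK5099. The Sen(IR) and CTPI2 libraries overlapped each other and lay above Prol, and those with UK5099 lay below Prol. Means were 2.23 ± 0.0644 CPM in Prol, 3.26 ± 0.361 in Sen(IR), 3.30 ± 0.359 with CTPI2 and 0.636 ± 0.377 with UK5099, the last resting on 7, 28 and 15 counts.

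Per kilobase of the Ensembl-canonical transcript (401 bases for MT2A, 746 for MT1E, 404 for MT1X), MT2A stood highest in every group, at 317 ± 57.5 CPM per kb in Prol, 336 ± 11.8 in Sen(IR), 308 ± 15.8 with CTPI2 and 31.7 ± 4.33 with UK5099. MT1E followed at 28.3 ± 5.80, 14.8 ± 1.18 and 12.8 ± 0.779 CPM per kb in Prol, Sen(IR) and CTPI2, above MT1X at 5.51 ± 0.159, 8.07 ± 0.894 and 8.16 ± 0.887. With UK5099 the 2 minor genes reached 1.72 ± 0.604 and 1.57 ± 0.933 CPM per kb, and their libraries overlapped.

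**Figure D2:**
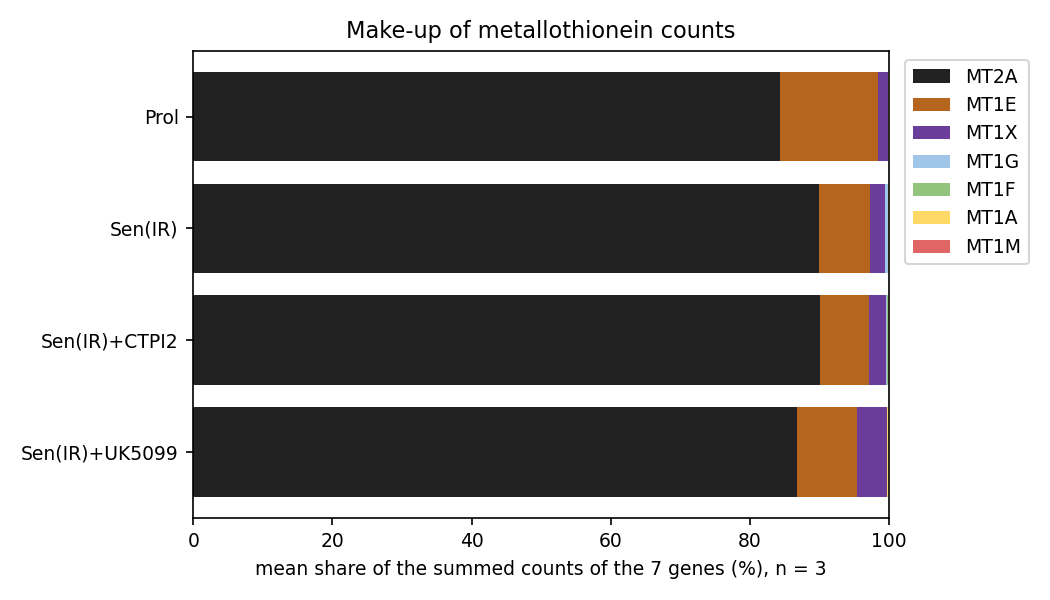
Mean share (%) of the summed counts of the 7 genes held by each gene (colours) in the 4 groups, n = 3 libraries each. MT2A fills 84.4 to 90.1% of every bar, and the MT1E segment shrinks from 13.997% in Prol to 7.37% in Sen(IR).

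As a share of the summed counts, MT2A held 84.4 ± 0.460% in Prol, 89.9 ± 0.162% in Sen(IR), 90.1 ± 0.978% with CTPI2 and 86.8 ± 2.53% with UK5099. MT1E held 13.997 ± 0.536% in Prol, 7.37 ± 0.336% in Sen(IR), 6.999 ± 0.683% with CTPI2 and 8.56 ± 1.89% with UK5099. The MT1E share in Prol thus lay above that of all irradiated libraries, which overlapped one another. MT1X held between 1.51% and 4.31% as group means.

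MT1G was the clearest of the 4 sparse members. Its counts were 0 in each Prol library, 14, 9 and 8 in Sen(IR), 5, 12 and 5 with CTPI2, and 1, 0 and 0 with UK5099. The Sen(IR) and CTPI2 libraries overlapped each other and neither overlapped Prol or UK5099. Among all tested genes, 70.9% did not overlap between Sen(IR) and Prol and 70.1% did not between CTPI2 and Prol. Against UK5099 the share was 56.6% for Sen(IR) and 53.6% for CTPI2. Against a floor of 3 counts per library, MT1G was at least 3.91-fold higher in Sen(IR) than in Prol and at least 2.53-fold higher with CTPI2 than in Prol. Between Sen(IR) and UK5099 the ratio was 34.8, with a 95% interval of 6.21 to 1519 (exact, for counting error only), and it rested on 1 count in 1 UK5099 library.

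MT1F had 1, 0 and 0 counts in Prol, 3, 1 and 2 in Sen(IR), 5, 3 and 6 with CTPI2 and 0 in each UK5099 library. Against the floor of 3 counts it was at least 1.71-fold lower with UK5099 than with CTPI2, while the Sen(IR) mean was itself under that floor. MT1A had 2, 0 and 4 counts in Prol, 0, 5 and 4 in Sen(IR), 5, 1 and 3 with CTPI2 and 1, 0 and 1 with UK5099, with overlap between all groups. MT1M had 3 counts over the Prol libraries (1, 0 and 2), 3 over Sen(IR) (2, 1 and 0) and 0 in all others. Differences in MT1A and MT1M were not resolved at this depth.

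The comparison of Sen(IR) with UK5099-treated Sen(IR) cells measures what differed with this compound in irradiated cells. All 3 tested members fell, in a comparison in which 12.1% of all genes were called lower and 20.8% were called in either direction. MT1E fell by 3.10 on the log2 scale (SE 0.198, adjusted p = 1.75e-11) and MT1X fell by 2.32 (SE 0.274, adjusted p = 3.57e-07). The ratios of mean CPM were 10.6-fold lower for MT2A, 8.60-fold for MT1E and 5.13-fold for MT1X. None of the 3 had a UK5099 library that overlapped Sen(IR), as held for 56.6% of all tested genes. The 95% interval was -3.63 to -3.18 for MT2A, -3.51 to -2.69 for MT1E and -2.89 to -1.75 for MT1X on the log2 scale, so that the interval of MT1X did not meet that of MT2A. The difference between genes was not itself tested.

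CTPI2 left no tested member called against Sen(IR), where 0.166% of all genes were called (3 higher, or 0.0185%, and 24 lower, or 0.148%). The log2 difference was -0.12 for MT2A (95% interval -0.31 to 0.07, adjusted p = 0.861), -0.21 for MT1E (-0.51 to 0.10, adjusted p = 0.853) and 0.02 for MT1X (-0.43 to 0.47, adjusted p = 0.995). The unadjusted p of each was above 0.05 too, at 0.189, 0.176 and 0.926. Between these groups the libraries of MT1E did not overlap, as held for 15.1% of all genes, and those of MT2A and MT1X did. The intervals reach a drop of 0.51 at most and so do not hold a drop of the size seen with UK5099.

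**Figure D3:**
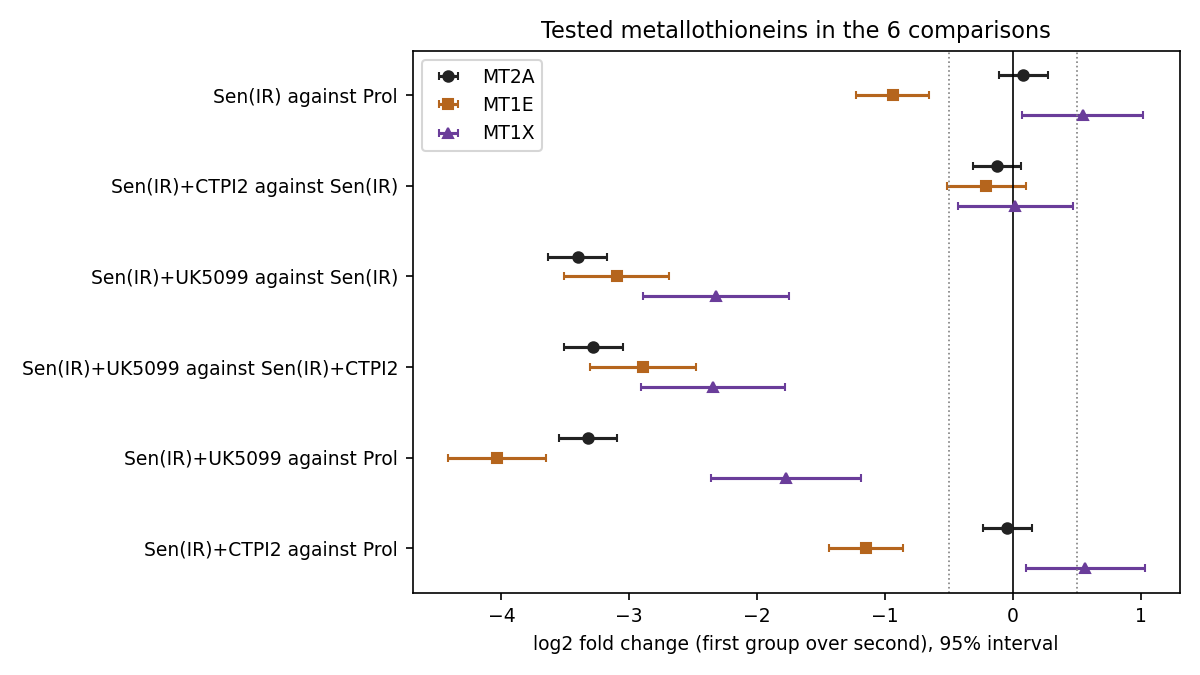
Log2 fold change of MT2A, MT1E and MT1X (symbols) in the 6 comparisons, group named first over group named second, with 95% intervals from the fit of all 12 libraries; dotted lines mark ±0.5. All points with UK5099 named first lie between -4.04 and -1.78, and those of CTPI2 against Sen(IR) lie between -0.21 and 0.02 with intervals across 0.

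Set directly against CTPI2, at the differing concentrations given above, UK5099 libraries had a log2 difference of -3.28 for MT2A (SE 0.110, adjusted p = 2.08e-16), -2.89 for MT1E (SE 0.20, adjusted p = 8.31e-11) and -2.34 for MT1X (SE 0.271, adjusted p = 3.08e-07). All 3 were called lower, as were 11.7% of all genes (8.2% were called higher and 19.9% in either direction), and none overlapped between the groups, as held for 53.6%.

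Between Prol and Sen(IR) the members differed unequally. Irradiation and growth arrest go together in this comparison and cannot be told apart. In Sen(IR) against Prol, where 47.2% of all genes were called (24.8% higher and 22.4% lower), 1 of the 3 tested members rose and 1 fell. MT1E fell by 0.94 (SE 0.138, adjusted p = 2.81e-06). MT1X rose by 0.55 (SE 0.227, adjusted p = 0.0373), a call that was lost without any 1 of the 3 Prol libraries (0.57, 0.54 and 0.54, adjusted p = 0.0582, 0.0651 and 0.0770), without Sen(IR) replicate 2 (0.49, adjusted p = 0.108) and without Sen(IR) replicate 3 (0.51, adjusted p = 0.0938). MT2A differed by 0.08 (95% interval -0.11 to 0.27, adjusted p = 0.437). Libraries of MT1E and MT1X did not overlap between these groups, as held for 70.9% of all genes.

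The inhibitor-treated cells were also set against the Prol libraries, which these comparisons share with the one above. With UK5099 all 3 tested members were lower than in Prol, with a log2 fold change of -3.32 for MT2A (adjusted p = 1.98e-17), -4.04 for MT1E (adjusted p = 7.51e-15) and -1.78 for MT1X (adjusted p = 7.34e-06). Of all genes 53.1% were called there, 26.9% higher and 26.2% lower. None of the 3 overlapped Prol, as held for 74.5% of all genes. With CTPI2 the differences from Prol were -0.04 for MT2A (adjusted p = 0.694), -1.15 for MT1E (adjusted p = 1.68e-07) and 0.57 for MT1X (adjusted p = 0.0295), where 46.8% of all genes were called (24.8% higher and 21.9% lower). MT1E thus fell and MT1X rose in that comparison, both without overlap (70.1% of all genes), and the MT1X call was lost without Prol replicate 2 (adjusted p = 0.0533), without Prol replicate 3 (0.0643) or without Sen(IR)+CTPI2 replicate 2 (0.115).

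A further 13 metallothionein rows outside the 7 members were looked up, of which 8 had a count and 1 passed the filter. That row was MT1L, a transcribed pseudogene at 56617563 to 56618680 between MT2A and MT1E. MT1L stood at 6.31, 5.79 and 6.83 CPM in Prol, 22.7, 21.9 and 24.3 in Sen(IR), 22.6, 22.4 and 23.7 with CTPI2 and 6.08, 5.78 and 4.80 with UK5099. The Sen(IR) and CTPI2 libraries lay together above the rest, and the UK5099 libraries overlapped Prol. A lack of overlap held for 70.9% of all genes between Sen(IR) and Prol and for 56.6% between Sen(IR) and UK5099. With CTPI2 in place of Sen(IR) the shares were 70.1% and 53.6%. MT1L rose in Sen(IR) against Prol by 1.86 (SE 0.0988, adjusted p = 1.49e-13) and, with UK5099 against Sen(IR), fell by 2.05 (adjusted p = 1.61e-13). With UK5099 against Prol it differed by -0.19 (adjusted p = 0.136).

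For every 100 counts of MT2A there were 5.03 ± 0.540 counts of MT1L in Prol, 17.0 ± 0.312 in Sen(IR), 18.6 ± 1.10 with CTPI2 and 43.8 ± 1.99 with UK5099. Libraries of Sen(IR) and CTPI2 overlapped in this ratio, and those of Prol and UK5099 stood apart at its lowest and highest ends. Per kilobase, MT1L reached 29.9 ± 3.60 CPM with UK5099, overlapping MT2A in those libraries, although its annotated exons cover 186 bases and the value depends on that length. The other rows with counts were sparse: MT1B had 6 counts in Sen(IR) and 2 with CTPI2, MT1H had 2 and 5, MT3 had 3 with CTPI2, and MT1P1, MT1P3, MT1XP1 and MT2P1 had at most 6 in any group.

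Near-identical copies limit what a count of one gene means, since the authors counted uniquely mapped reads. Stretches of 150 bases, the length of a read, were compared between each member's canonical transcript and all other annotated transcripts (GENCODE release 44). Such stretches were shared by none of MT2A, MT1E, MT1A, MT1F, MT1G and MT1M. In MT1X 6.67% of them were also in the lncRNA AC026461.1, which had 0 counts in all 12 libraries. This lncRNA is annotated over 18.59% of the exon bases of MT1X, on the same strand. Its 0 counts therefore do not show that MT1X lost no reads there. At 50 bases, 11.1% of the stretches of MT2A, 10.3% of those of MT1E and 51.0% of those of MT1X occurred in another gene. All stretches of MT1L were shared with a lncRNA annotated over it, ENSG00000291105, so the row may stand for either. Matches were exact, so reads with errors were not covered.

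The libraries differed in other ways that go with the groups. Totals ran from 20597736 to 28245693 counts. MKI67, a marker of dividing cells, was 235 ± 32.3 CPM in Prol, 11.0 ± 1.65 in Sen(IR) and 0.949 ± 0.377 with UK5099. Of 4 genes of proliferation and arrest, 3 fell with UK5099 against Sen(IR) (median log2 fold change -1.24) and against CTPI2 (median -1.18). These were MKI67, CCNA2 and LMNB1, while CDKN1A differed by 0.06 from Sen(IR). Genes called lower made up 12.1% of all genes in the first comparison and 11.7% in the second. Of 9 fibroblast genes, 4 fell with UK5099 against Sen(IR) and 0 rose, where 12.1% of all genes were called lower and 8.76% higher. The summed level of the 9 ran from 24862 to 28324 CPM in Prol and from 25447 to 26591 in Sen(IR). It ran from 22592 to 24696 with CTPI2 and from 15241 to 16328 with UK5099. Summed over each list, 4 epithelial genes were at 0.606 to 1.33 CPM, 3 endothelial genes at 0.170 to 1.36 and 3 leukocyte genes at 0.729 to 2.11, with no gene at 0 in all libraries. The epithelial sum was 1.24 to 1.33 CPM with UK5099 and at most 1.05 in the other groups. Of these genes, CD68 was called higher in Sen(IR) (log2 fold change 0.85) and with CTPI2 (0.86) than in Prol. VWF was higher with CTPI2 (1.46) and EPCAM higher with UK5099 (0.86) than in Prol. Against Prol, 24.8% of all genes were called higher in Sen(IR), 24.8% with CTPI2 and 26.9% with UK5099. Mitochondrially encoded genes held 3.81 to 4.23% of counts with UK5099 and 2.78 to 3.21% in Sen(IR). The part of these differences in the metallothionein values was not tested.

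Genes that sense, carry or respond to metals were counted from lists chosen with earlier results of these data known. MTF1, the zinc-sensing activator of the family, was at 26.5 ± 4.28 CPM in Prol, 32.4 ± 2.01 in Sen(IR) and 35.0 ± 2.26 with UK5099. It differed by 0.29 in Sen(IR) against Prol (adjusted p = 0.0122) and by 0.11 with UK5099 against Sen(IR) (adjusted p = 0.373), both under the fold limit. SLC30A1, which pumps zinc out of the cell, was at 76.0 ± 2.44 CPM in Prol, 155 ± 8.64 in Sen(IR) and 199 ± 12.2 with UK5099. SLC30A1 rose in Sen(IR) by 1.03 (adjusted p = 1.28e-12), and its difference with UK5099 was 0.36 (adjusted p = 3.63e-05), under the fold limit and opposite in sign to MT2A. Of the 4 tested genes of this zinc-sensing list, 1 was called with UK5099 against Sen(IR), where 20.8% of all genes were called. This was SELENOH, a nuclear selenoprotein, which fell by 0.62.

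Among 6 tested zinc exporters of the SLC30 family, 3 rose and 0 fell in Sen(IR) against Prol, where 24.8% of all genes were called higher, with a median of 0.60 against 0.01 over all genes. Beside SLC30A1 these were SLC30A4 (1.32) and SLC30A7 (1.06), which move zinc into vesicles and the secretory pathway. With UK5099 against Sen(IR) none of the 6 was called (median -0.03), where 20.8% of all genes were called in either direction.

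Zinc importers of the SLC39 family were also counted. In Sen(IR) against Prol 6 of 11 tested rose and 0 fell (median 0.62), where 24.8% of all genes were called higher. With UK5099 against Sen(IR) 2 of the 11 fell and 0 rose (median -0.22), where 12.1% of all genes were called lower. SLC39A8, an importer of zinc, manganese and cadmium, rose by 3.30 in Sen(IR), from 2.19 ± 0.673 to 21.4 ± 0.852 CPM, and fell by 2.46 with UK5099 to 3.88 ± 0.570 CPM (adjusted p = 1.30e-12). SLC39A14, which imports zinc, iron and manganese, rose by 0.81 in Sen(IR) and fell by 1.97 with UK5099, from 193 ± 5.84 to 49.4 ± 1.88 CPM (adjusted p = 1.61e-17). SLC39A11 rose by 1.32 and SLC39A13 by 0.73 in Sen(IR), with differences of 0.20 and -0.18 with UK5099.

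**Figure D4:**
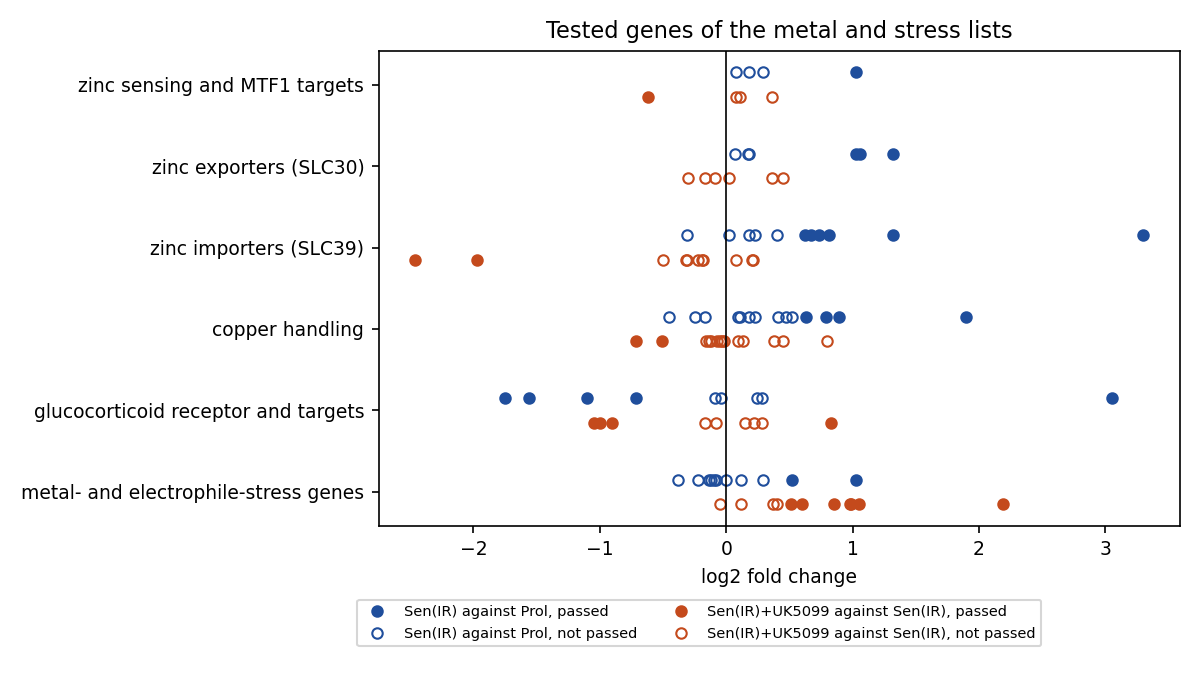
Log2 fold changes of each tested gene in 6 lists of metal-handling, glucocorticoid and stress genes, for Sen(IR) against Prol (blue) and Sen(IR)+UK5099 against Sen(IR) (orange), with filled points for called genes. Among stress genes 7 orange points are filled and all of them lie above 0, while the 2 filled orange points of the importers, SLC39A8 and SLC39A14, lie near -2.46 and -1.97.

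Of 14 tested copper-handling genes, 4 rose and 0 fell in Sen(IR) against Prol, where 24.8% of all genes were called higher and 22.4% lower: ATP7B (1.90) and ATP7A (0.89), which export copper, the importer SLC31A1 (0.79), and CCS (0.63), which loads copper into SOD1. With UK5099 against Sen(IR) 2 fell, SLC31A1 (-0.71) and SCO2 (-0.51), a copper chaperone of cytochrome c oxidase named after its value was seen. Of all genes 12.1% were called lower there, and the list's median was -0.04.

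Glucocorticoid targets were counted because MT2A is known to respond to the hormone. In Sen(IR) against Prol 4 of 9 tested fell and 1 rose, where 47.2% of all genes were called in either direction. With UK5099 against Sen(IR) 3 fell and 1 rose, where 20.8% were called. NR3C1, the receptor, fell by 0.71 in Sen(IR) and differed by -0.08 with UK5099. FKBP5, a widely used readout of the receptor, fell by 1.56 in Sen(IR) and rose by 0.83 with UK5099 (13.4 ± 0.341 to 24.0 ± 1.66 CPM, adjusted p = 8.54e-09), opposite to MT2A. SGK1 fell by 1.75 in Sen(IR) and again fell by 0.90 with UK5099, and DUSP1 fell by 1.10 in Sen(IR), while HSD11B1, which makes active hormone, rose by 3.05. KLF9 (-1.05) and ERRFI1 (79.7 ± 3.18 to 39.7 ± 1.03 CPM), both named after their values were seen, were the others that fell with UK5099. SGK1, KLF9 and ERRFI1 thus went in the direction of MT2A. A part of the receptor in the fall of MT2A was not tested.

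Genes of the response to metals and electrophiles rose with UK5099 while metallothioneins fell. Of 11 tested, 7 rose and 0 fell against Sen(IR) (median 0.60 against 0.01 over all genes), where 8.76% of all genes were called higher. HMOX1, the heme-degrading enzyme, rose by 2.19 (39.2 ± 3.90 to 179 ± 5.90 CPM, adjusted p = 2.99e-17). SRXN1, which repairs oxidized peroxiredoxins, rose by 1.05, SLC7A11, the cystine importer, by 0.99, and GCLM, a subunit of the enzyme that starts glutathione synthesis, by 0.98. In Sen(IR) against Prol 2 of the 11 rose and 0 fell (median -0.08), where 24.8% of all genes were called higher and 22.4% lower. HMOX1 was among the 2, with a rise of 1.03. With CTPI2 against Sen(IR) no gene of the 6 lists on metals, glucocorticoids and stress was called. Only 0.166% of all genes were called there, so this absence says little about the lists.

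**Figure D5:**
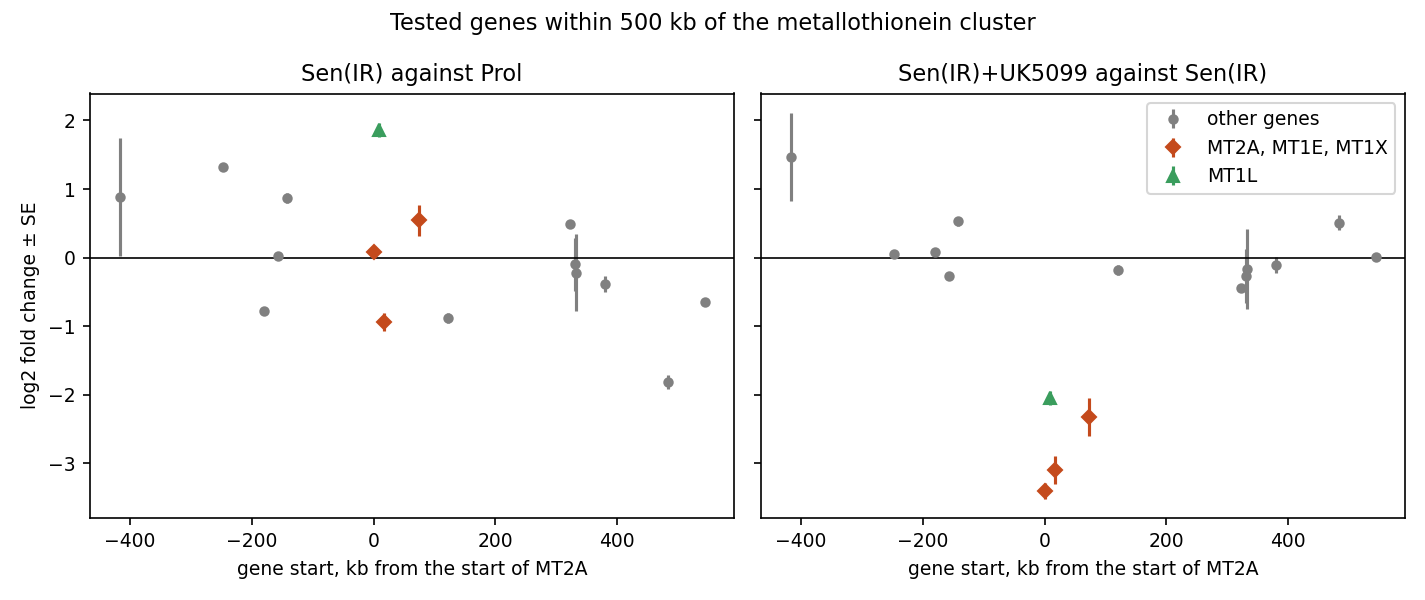
Log2 fold change ± SE of tested genes by the distance of their start (kb) from that of MT2A, in Sen(IR) against Prol and in Sen(IR)+UK5099 against Sen(IR). In the second panel MT2A, MT1E, MT1X and MT1L lie between -3.40 and -2.05, and the grey points of the 12 other genes lie between -0.44 and 1.47. The gene at 1.47 was not called.

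The genes on either side of the cluster were counted to set the members beside their surroundings. Of 12 tested genes that start within 500 kb of the cluster, 2 rose and 0 fell with UK5099 against Sen(IR). Over the 12, log2 fold changes had a median of -0.05 and a range of -0.44 to 1.47. The highest belonged to a sparse gene, at 0.205 ± 0.122 CPM in Sen(IR), that was not called (SE 0.642, adjusted p = 0.067). The nearest tested gene before the cluster, BBS2 (25.9 kb away), rose by 0.53, and the nearest after it, NUP93 (45.9 kb away), differed by -0.18. In Sen(IR) against Prol 2 of these 12 rose and 4 fell. Of all genes 20.8% were called in the first of these comparisons and 47.2% in the second, so the neighbours were called about as often as genes in general.

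Over the 12 libraries, log2 CPM of MT2A had a Pearson correlation of 0.948 with MT1E and 0.926 with MT1X, and of 0.639 with MT1L. These values are descriptions, since the libraries share 4 groups and 1 group stands far below the rest. Among 12253 other genes with a mean log2 CPM above 1, the patterns most like that of the summed members were those of PLAU (r = 0.997), BMP2 (0.996), LRRC17 (0.995), INMT (0.994), IGFBP6 (0.993) and LOXL2 (0.993). PLAU encodes the urokinase-type plasminogen activator. Its level was 1548 ± 73.6 CPM in Prol, 1625 ± 36.2 in Sen(IR), 1412 ± 44.7 with CTPI2 and 120.2 ± 14.4 with UK5099, so that the UK5099 libraries stood apart and the other groups stood near one another, as for the sum.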

How the data were processed

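RNA of 12 MRC5 libraries (3 per group) was sequenced as paired reads of 150 bases. The deposited table holds raw read counts per gene: per the methods the authors used Trimmomatic 0.36 for trimming, STAR 2.5.2b for alignment to GRCh38, and counted unique reads in exons with featureCounts (Subread 1.5.2). Reads that match several metallothionein copies were therefore lost, the annotation release is not given in the sources used here, and the methods name no stranded kit. Columns were assigned to groups by their labels. Chi-square per gene between libraries of a group was 2.28 to 13.4, so none looked like a library deposited again.

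The counts were analysed with edgeR 4.0.16 in R 4.3.3 (filterByExpr, TMM, glmQLFit, glmQLFTest). The 12 libraries shared a model with the group as its only term, tested on simulated data first. The p-values were adjusted over 16251 genes. CPM are counts for each 1e+06 of TMM-scaled totals, and correlations used log2(CPM + 0.5). Totals of 20597736 to 28245693 counts made 3 counts, used as the floor, worth 0.123 CPM in Prol. The exact interval of a count ratio and the floors cover counting error only. Intervals of log2 fold changes came from the fit and include the spread between libraries. Coordinates, transcript lengths and neighbours came from GENCODE release 44.

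All 7 members, further metallothionein rows with a count, up to 4 called genes with the largest changes per list besides MTF1, SLC30A1, HMOX1, FKBP5 and NR3C1, the nearest tested neighbours and the 6 genes most like the sum are named. The members and lists were chosen with earlier results of these data known. Alternatives were the DESeq2 Wald test (1.42.0), scaling by RLE or the upper quartile, no filter, only the 2 groups compared, a replicate block, other call rules, other sums, and leaving out each library.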

Additional observations from a re-analysis of the deposited data

How the results depend on the processing

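The fall of MT2A, MT1E and MT1X with UK5099, against Sen(IR), CTPI2 or Prol, held its direction and its call under every alternative run, and the absence of calls for CTPI2 against Sen(IR) held too. Without the filter on low counts all 7 members were tested, and calls rose from 3 to 4 for UK5099 against Sen(IR) and from 2 to 3 for Sen(IR) against Prol, both by MT1G (adjusted p = 3.79e-05 and 1.64e-06), from 3 to 5 for UK5099 against CTPI2 and from 2 to 4 for CTPI2 against Prol. Asking for a log2 fold change beyond 1 left 0 calls in Sen(IR) against Prol and 1 in CTPI2 against Prol, by its own construction. Leaving out 1 library gave 1 to 2 calls in each of these comparisons with Prol. Differences that were not called changed sign when 1 library was left out: MT2A ran from -0.05 (without Prol replicate 2) to 0.21 in Sen(IR) against Prol and from -0.17 to 0.09 (without Prol replicate 3) in CTPI2 against Prol, and MT1X from -0.07 (without Sen(IR) replicate 1 or CTPI2 replicate 2) to 0.08 in CTPI2 against Sen(IR). With upper-quartile scaling MT2A was 0.07 in CTPI2 against Prol.

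For the sum, the log2 ratio of group means was -3.35 for UK5099 against Sen(IR), -3.22 against CTPI2 and -3.36 against Prol. Without MT2A the first was -2.94 and the second -2.78, and the sum moved to -0.64 in Sen(IR) against Prol (from -0.01) and to -0.80 in CTPI2 against Prol (from -0.14), where MT1E makes up most of the rest. With all metallothionein rows, MT1L among them, the ratios were -3.09 for UK5099 against Sen(IR) and -2.95 against Prol. Upper-quartile scaling moved the median log2 fold change of all genes from 0.0139 to 0.135 in Sen(IR) against Prol. The median moved from 0.00722 to 0.147 in UK5099 against Prol and from 0.0124 to 0.124 in CTPI2 against Prol. No call of a member changed with this scaling.

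Whether replicate numbers pair the libraries was not resolved. Same-numbered libraries had correlations of -0.258 to 0.212 over all comparisons, and not every pair exceeded 0.1 in any. In Sen(IR) against Prol, where these ran from 0.032 to 0.142, 5 of 6 libraries correlated best with their own number. In CTPI2 against Sen(IR) 4 of 6 did so (0.063 to 0.161), and fewer did in each other comparison. With the replicate block the members called stayed at 2, 3, 0, 3, 3 and 2 in the 6 comparisons. MT1X with UK5099, at 7 to 28 counts, and the 4 sparse members are limited by depth. Groups of 3 were too small for a check for single deviating libraries.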
